A study of Mus musculus with 24 samples.

Results

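The nuclear genes for the subunits of the oxidative phosphorylation complexes were followed in the mouse left ventricle after transverse aortic constriction (TAC) and after a sham operation. They were taken from the count table by name, as the symbols that begin with Nduf and a letter of the set a, b, c, s or v before a digit (complex I), the symbols Sdha to Sdhd (complex II), and the symbols that begin with Uqcr (complex III), with Cox4 to Cox8 (complex IV) or with Atp5 (complex V). This gave 84 of the 24015 genes in the table, of which 37 belonged to complex I, 4 to complex II, 8 to complex III, 18 to complex IV and 17 to complex V. In TAC the aortic arch is narrowed by a tie, and the ventricle pumps against a raised pressure. RNA was measured by sequencing of libraries made from frozen left ventricles, 2, 4, 7 and 21 days after either operation, with 3 libraries in each of the 8 groups (sham and TAC at each day). The labels used here give no strain, sex or age, and do not say whether the 3 libraries of a group are 3 mice. Should they share an animal, p-values would reflect the spread among libraries alone, part of which may be technical.

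The complexes of oxidative phosphorylation sit in the inner mitochondrial membrane. Complexes I and II pass electrons from NADH and succinate to ubiquinone, complex III passes them on to cytochrome c, complex IV passes them to oxygen, and complex V, the ATP synthase, uses the proton gradient that this builds up to make ATP. The heart draws most of its ATP from this chain. Each complex except complex II is built from subunits of both genomes, and the 13 subunits that mitochondrial DNA encodes were not analysed here. The prefixes do not follow present knowledge everywhere: the protein of Ndufa4 is now placed in complex IV, and Atp5sl, now named Dmac2, encodes an assembly factor of complex I. Both were kept under their prefix.

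Of the 84 subunit genes, 81 passed the filter on low counts. Cox8c had no read, Cox7b2 had 33 reads over all 24 libraries, and Ndufs5 had a count of 0 in every library. The RPKM table of the authors (reads per 1000000 reads and kilobase of transcript) listed Ndufs5 at 37.4 to 90.9 over the 24 libraries, so that the 2 tables were not made by the same counting for this gene. Ndufs5 fell short of the threshold on the RPKM scale, where a pseudocount of 0.1 was added before the log2. Its log2 differences were -0.44 at day 4 (limma, adjusted p = 0.122) and -0.43 at day 7 (limma, adjusted p = 0.132). Close copies elsewhere in the genome, such as processed pseudogenes, can split the reads of a gene. Of the 84 genes, 7 had a transcript of another gene with at least 95% identity over at least 50% of their length, namely Atp5h, Atp5k, Atp5l, Atp5o, Ndufb11, Ndufs3 and Uqcrb, and the levels of these 7 are uncertain.

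The libraries held 10.7 to 17.6 M reads (M, 1000000 reads), and 13816 genes were tested. The 14 heart muscle cell markers (such as Tnnt2, Myl2 and Ttn) summed to 150598 to 166170 counts per 1000000 reads (CPM) in sham and to 112395 to 167920 CPM in TAC, so that the label of heart tissue held in every library. Reads of Myl7, an atrial myosin light chain, exceeded 30 CPM in 4 libraries (sham day 2 replicates 2 and 3, TAC day 7 replicate 1 and sham day 21 replicate 2). Results were also computed without these 4.

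Per unit of transcript length the subunits of complex IV held both the highest and the lowest levels. In sham hearts the median over 12 libraries was highest for Cox7a1, at 9364 RPKM (lowest library 7524, highest 11692), followed by Cox6c at 5900 RPKM (4810 to 7104), Atp5k, whose level is uncertain because of its copy, at 4615 RPKM (4037 to 5114), Cox6a2 at 4361 RPKM (3807 to 4996) and Cox8b at 3757 RPKM (3357 to 4336). The ranges of Cox7a1 and Cox6c did not overlap, whereas those of Cox6c, Atp5k and Cox6a2 ran into each other. Cox7a1, Cox6a2 and Cox8b encode the heart and skeletal muscle forms of 3 small subunits of cytochrome c oxidase. At the other end of the tested genes stood Cox6b2, a testis form, at 3.42 RPKM (1.98 to 6.09), Cox4i2 at 11.4 RPKM (8.56 to 14.7), Atp5s, a coupling factor, at 11.6 RPKM (9.11 to 13.6) and Ndufa4l2 at 14.6 RPKM (13.1 to 17.3).

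The RNA of the 81 tested subunits, summed, was between 41329 and 47211 CPM in the 12 sham libraries, which is 4.08% to 4.69% of all reads. At day 2 the 3 TAC libraries held 45451, 32761 and 31071 CPM. At day 4 they held 32078, 36461 and 27308 CPM. At day 7 they held 22151, 38516 and 31980 CPM, and at day 21 they held 36489, 46574 and 30687 CPM. The TAC libraries of days 4 and 7 therefore lay below every sham library, while at days 2 and 21 the TAC group overlapped with sham through a single library each, TAC day 2 replicate 1 at 107% and TAC day 21 replicate 2 at 110% of the sham mean of the day. The lowest library of the series was TAC day 7 replicate 1, at 50.8% of the sham mean. Within a library the complexes went together: in TAC day 7 replicate 1 complexes I to V stood at 50.9%, 54.1%, 52.9%, 42.9% and 55.4% of sham, and in TAC day 7 replicate 2 at 90.0%, 88.9%, 89.4%, 82.3% and 90.9%.

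**Figure D1:**
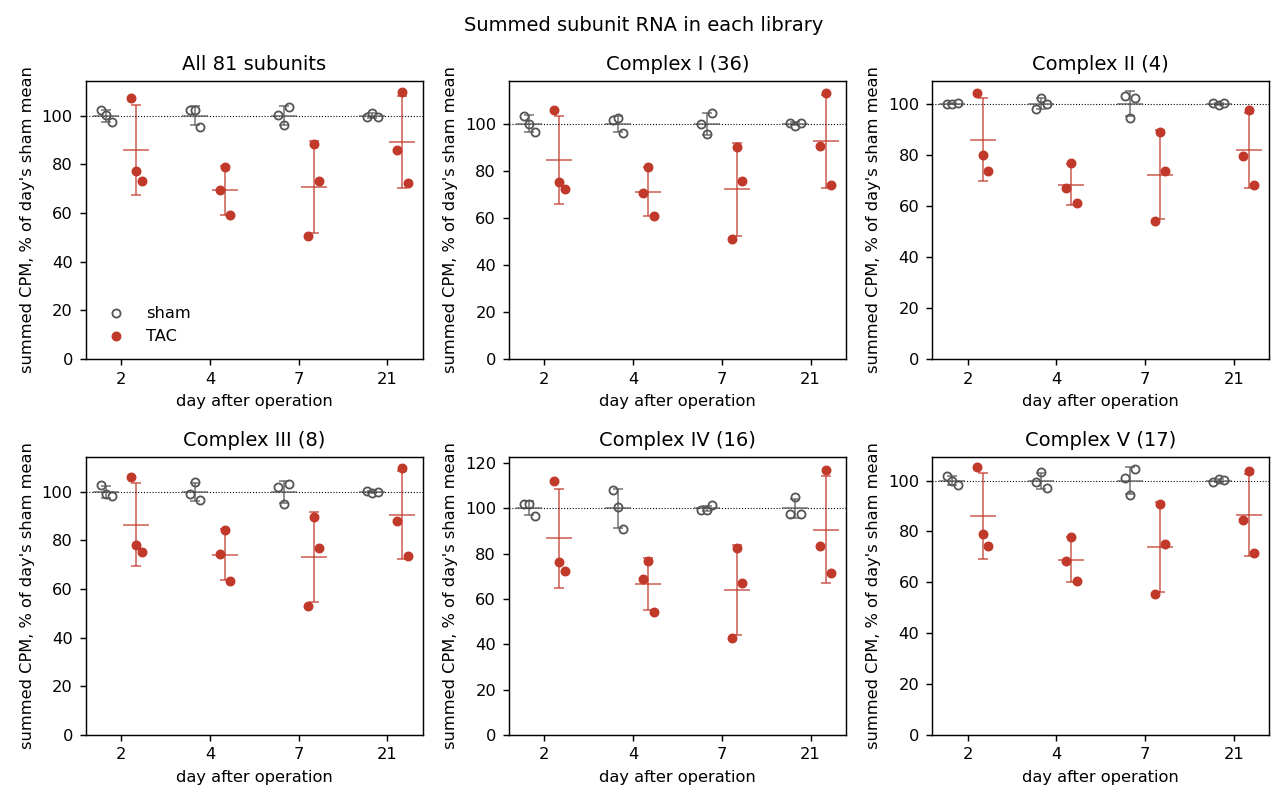
Summed CPM of the tested subunits in each library (y axis, percent of the sham mean of the same day) against the day after the operation (x axis), for all 81 and for each complex with its number of genes; points are libraries, horizontal lines are group means and bars are 1 SD (n = 3). All TAC points of days 4 and 7 lie under the sham points for the sum over all subunits, and TAC day 2 replicate 1 (107%) and TAC day 21 replicate 2 (110%) lie above them.

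RNA of other cell types differed between the same libraries. In a heart sample, fewer cells of a type and less RNA per cell cannot be told apart. The 10 fibroblast markers summed to 1464 to 2039 CPM in sham. In TAC they summed to 1777, 3200 and 2873 CPM at day 2, 8403, 4391 and 8726 CPM at day 4, 9184, 1999 and 4349 CPM at day 7, and 3242, 1444 and 4634 CPM at day 21. Within each day the TAC library with the lowest fibroblast sum had the highest subunit sum. Of the 10 fibroblast markers 5 rose at day 4 and 6 at day 7, and of the 10 tested macrophage markers 10 and 9 rose, where 14.4% and 13.1% of all genes tested rose at these days. Macrophage markers summed to 232 to 358 CPM in sham and to 262 to 840 CPM in TAC. Of 8 endothelium markers 3 fell at day 4, and 1 fell and 2 rose at day 7. Of 8 smooth muscle and pericyte markers 2 fell and 3 rose at day 4, and 1 fell at day 7. Endothelium markers summed to 1265 to 1479 CPM in sham and to 1104 to 1620 CPM in TAC. Smooth muscle and pericyte markers summed to 1600 to 1946 CPM in sham and to 1320 to 2052 CPM in TAC. Of the 14 heart muscle cell markers 6 fell at day 4 and 5 at day 7, where 10.1% and 10.0% of all genes fell. Set against the heart muscle markers, the subunits held 25.6 to 31.2 CPM per 100 marker CPM in sham. The TAC libraries held 27.1, 22.1 and 21.9 at day 2, 23.3, 23.9 and 21.6 at day 4, 19.7, 24.1 and 23.5 at day 7, and 24.3, 29.8 and 21.0 at day 21. All TAC libraries of days 4 and 7 were below all sham libraries on this scale too. The part of the other cell types in the results below was not tested beyond this.

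Subunit RNA was lower in TAC hearts at days 4 and 7, in all 5 complexes, and no subunit passed the test for a rise at any day. A fold change below is a log2 value, TAC relative to sham, and its error is the standard error. Levels are CPM after TMM scaling of the libraries, mean ± SD of n = 3. The test was the quasi-likelihood test of edgeR, and p-values were adjusted (Benjamini-Hochberg) over the 13816 genes, with a threshold of 0.05. At day 2, 0 of 81 subunits fell, also by DESeq2 and by limma voom, against a background of 0.854% of all genes tested. At an unadjusted p under 0.05, 4 of 81 were lower at day 2, as were 1047 of the 13816 genes (edgeR). At day 4, 44 of 81 fell, against 10.1% of all genes. At day 7, 27 of 81 fell, against 10.0% of all genes. At day 21, 1 of 81 fell, Cox7c, against 0.470% of all genes. The rises numbered 0 of 81 at each day by edgeR, DESeq2 and limma voom, where 3.73%, 14.4%, 13.1% and 0.622% of all genes rose by edgeR. At an unadjusted p under 0.05, 0, 0, 1 and 1 of 81 were higher, as were 1717, 2784, 2783 and 1278 of the 13816 genes (edgeR).

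Direction was shared more widely than the calls. At days 2, 4, 7 and 21, 78, 79, 77 and 69 of the 81 log2 fold changes were below 0, and their medians were -0.20, -0.49, -0.41 and -0.10, while the median over all genes tested was within 0.02 of 0 on each day. The medians correspond to 86.8%, 71.4%, 75.3% and 93.0% of the sham level. All 3 TAC libraries lay below all 3 sham libraries of the day for 7 subunits at day 2 (11.2% of all genes tested), 71 at day 4 (19.6%), 43 at day 7 (19.4%) and 14 at day 21 (10.5%). The effect of TAC was not shown to differ between days for any subunit: 0 of 81 passed when the effect at day 4 was set against day 2, day 7 against day 4, day 21 against day 7 and day 21 against day 2, with 3, 0, 5 and 2 at an unadjusted p under 0.05 (edgeR). At the same unadjusted threshold the effect was lower for 503, 519, 857 and 560 of the 13816 genes and higher for 712, 532, 717 and 582. After adjustment, 0% of all genes tested were called in the first of these contrasts. In the second, 0.00724% were called with a lower and 0.0434% with a higher effect, in the third 0.0362% and 0.0290%, and in the fourth 0% and 0.0145%. The smallest p of a subunit in these contrasts was that of Cox7c for day 21 against day 2. Its difference was -0.52 ± 0.14 in log2 fold change (edgeR, adjusted p = 0.211).

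These counts moved with single libraries. Without TAC day 4 replicate 3 the count at day 4 was 9 in place of 44, without sham day 4 replicate 2 it was 14, without TAC day 4 replicate 1 it was 19, and without sham day 4 replicates 1 or 3 it was 25. At day 7 it was 2 without TAC day 7 replicate 1, 7 without sham day 7 replicate 3, 11 and 13 without sham day 7 replicates 1 and 2, 12 without TAC day 7 replicate 3, and 59 without TAC day 7 replicate 2. At day 2 it was 6 without TAC day 2 replicate 1 and 2 without TAC day 7 replicate 1, which enters through the shared estimate of the spread. At day 21 it was 0 without sham day 21 replicate 2, and the median rose to 0.03 without TAC day 21 replicate 3. The day 4 calls that held without any single library of the series were 9, among them those of Ndufs1, Ndufv1, Ndufb11, Sdhb, Uqcrfs1, Cox4i1, Cox7c and Atp5b, and the day 7 calls that did were 2, those of Ndufs1 and Cox7c. Without the 4 libraries with over 30 CPM of Myl7, which include TAC day 7 replicate 1, 50 subunits fell at day 4, 1 at day 7 (Cox7c) and 0 at day 21.

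**Figure D2:**
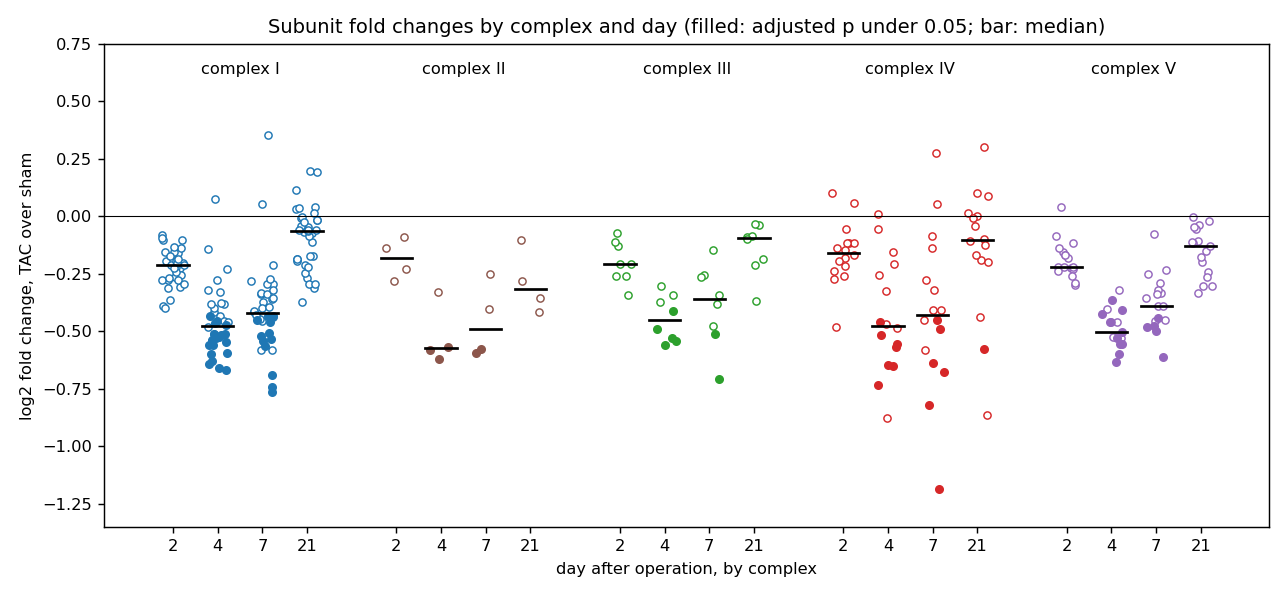
Log2 fold change of TAC over sham for each of the 81 tested subunits (y axis) by complex and day after the operation (x axis); filled points passed the test at an adjusted p under 0.05 (edgeR), open points did not, and bars are medians. The medians lie below 0 in every complex at every day, all filled points lie below 0, and the widest spread is in complex IV, from -1.18 to 0.27 at day 7.

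Complex I carries electrons from NADH through a flavin and a row of iron-sulfur clusters to ubiquinone. Of its 36 tested genes 19 fell at day 4 and 12 at day 7, 7 of them at both, with medians of -0.21, -0.48, -0.42 and -0.06 at days 2, 4, 7 and 21. Ndufs1, whose protein holds iron-sulfur clusters of the arm that takes up NADH, was at 533, 564 and 549 CPM in sham day 4 and at 374, 416 and 325 CPM in TAC day 4, and at 537, 527 and 552 CPM against 305, 436 and 375 CPM at day 7. It was among the 2 subunits, with Ndufs8, whose TAC libraries lay below the sham libraries on all 4 days, as did those of 185 of all genes tested. Its log2 fold change was -0.56 ± 0.12 at day 4 (edgeR, adjusted p = 0.0022) and -0.53 ± 0.12 at day 7 (edgeR, adjusted p = 0.00351), against -0.29 at day 2 and -0.37 at day 21, which did not pass.

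A further gene of the same arm is Ndufv1, whose protein binds the flavin. Ndufv1 fell by 0.64 on the log2 scale at day 4 (457 ± 16.5 to 293 ± 33.1 CPM, edgeR, adjusted p = 0.00496). Ndufa5, an accessory subunit, had the lowest log2 fold change of a called complex I gene at day 4, at -0.67 ± 0.19 (edgeR, adjusted p = 0.015), and lost the call without TAC day 4 replicate 3 (adjusted p = 0.0909). At day 7 the lowest was that of Ndufb4, a subunit of the membrane arm, which went from 385, 432 and 381 CPM in sham to 159, 307 and 242 CPM in TAC, -0.76 ± 0.22 (edgeR, adjusted p = 0.0165). The Ndufb4 call was lost without sham day 7 replicate 2 (adjusted p = 0.0548) and without TAC day 7 replicate 1 (adjusted p = 0.11). The complex I genes above 0 were Ndufa4l2 at days 4, 7 and 21 and Ndufa11 at days 7 and 21, with others within 0.12 of 0 at day 21, and none of them passed.

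Complex II is succinate dehydrogenase, which is also an enzyme of the citric acid cycle. Sdha, its flavoprotein, was at 1069, 1038 and 1030 CPM in sham and at 699, 765 and 574 CPM in TAC at day 4, and at 995, 994 and 1001 CPM against 490, 844 and 651 CPM at day 7. The groups did not overlap at either day, and the sham libraries differed far less from each other than the TAC libraries did. Sdha fell by 0.62 ± 0.16 at day 4 (edgeR, adjusted p = 0.00976) and by 0.59 ± 0.16 at day 7 (edgeR, adjusted p = 0.015) on the log2 scale. Those calls were lost without TAC day 4 replicate 3 (adjusted p = 0.071) and without TAC day 7 replicate 1 (adjusted p = 0.103). Sdhb, the iron-sulfur subunit, fell at day 4 from 756 ± 26.4 to 511 ± 57.5 CPM, -0.57 ± 0.15 (edgeR, adjusted p = 0.00878). Sdhc, a membrane anchor, was called at days 4 and 7, at -0.58 on both (edgeR, adjusted p = 0.0252 and 0.0282), while Sdhd, the other anchor, was at -0.33 and -0.25 and was not called. The Sdhc calls were lost without any of 4 libraries of day 4 (sham replicates 1 and 2, TAC replicates 1 and 3, adjusted p up to 0.152) or 5 of day 7 (all but TAC replicate 2, adjusted p up to 0.166). At day 21 complex II had the lowest median of the complexes, -0.32 over its 4 genes, none of which passed; all TAC libraries were below all sham libraries for Sdhb and Sdhc. In TAC day 21 replicate 2, where the sums of complexes I, III, IV and V were 104% to 117% of sham, complex II stood at 97.4%.

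Complex III passes electrons from ubiquinol to cytochrome c by way of the Rieske iron-sulfur protein, which Uqcrfs1 encodes. Of its 8 tested genes 5 fell at day 4 and 2 at day 7, with medians of -0.45 and -0.36. Uqcrfs1 was at 193, 224 and 236 CPM in sham and at 145, 170 and 149 CPM in TAC at day 4, -0.49 ± 0.12 (edgeR, adjusted p = 0.0061). Its TAC libraries lay below sham at days 2, 4 and 21 but not at day 7, where sham was at 222, 177 and 232 CPM and TAC at 150, 207 and 171 CPM. Uqcr11, a small subunit, had the lowest called log2 fold change of day 4, at -0.56 ± 0.16 (edgeR, adjusted p = 0.0148), and lost the call without TAC day 4 replicates 1 or 3 (adjusted p = 0.0555 and 0.0803). At day 7 that place was held by Uqcrb, whose protein takes part in ubiquinone binding and whose level is uncertain because of its copies, at -0.71 ± 0.21 (edgeR, adjusted p = 0.0214), a call that was lost without sham day 7 replicates 1 or 2 or TAC day 7 replicate 1 (adjusted p = 0.0582, 0.0637 and 0.134). The core protein genes Uqcrc1 and Uqcrc2 were at -0.54 and -0.37 at day 4, and Uqcrc1 alone was called (edgeR, adjusted p = 0.0352). That call was lost without any library of day 4 but TAC replicate 2, with an adjusted p of up to 0.165.

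Complex V couples proton flow to ATP synthesis. Atp5b, the catalytic beta subunit, was at 3728, 3798 and 3602 CPM in sham and at 2414, 2795 and 2135 CPM in TAC at day 4, and at 3749, 3466 and 3804 CPM against 2172, 3187 and 2527 CPM at day 7. Sham and TAC were apart at both days. Its log2 fold change was -0.60 ± 0.14 at day 4 (edgeR, adjusted p = 0.00496) and -0.48 ± 0.14 at day 7 (edgeR, adjusted p = 0.0195), the second of which was lost without sham day 7 replicates 1 or 3 or TAC day 7 replicates 1 or 3 (adjusted p up to 0.118). Atp5a1, the alpha subunit, was at -0.63 ± 0.17 at day 4 (edgeR, adjusted p = 0.0104), the lowest called value of the complex, and lost the call without TAC day 4 replicate 3 (adjusted p = 0.0732). At day 7 the lowest called value was that of Atp5h, a stalk subunit with near copies, at -0.61 ± 0.21 (edgeR, adjusted p = 0.0379), which was lost without any library of day 7 but TAC replicate 2 (adjusted p up to 0.217). Of the 17 genes 10 fell at day 4 and 5 at day 7, and all 17 values were below 0 on days 4, 7 and 21. The 3 genes Atp5g1, Atp5g2 and Atp5g3, which encode the same mature c subunit of the membrane ring, were at -0.56, -0.36 and -0.46 at day 4, and the first and second were called (edgeR, adjusted p = 0.0444 and 0.0187). Both calls were lost without sham day 4 replicates 2 or 3 or TAC day 4 replicates 1 or 3, that of Atp5g1 also without any of 10 other libraries, with adjusted p up to 0.147 for Atp5g1 and 0.0752 for Atp5g2. Atp5e, the epsilon subunit, was at -0.46 at day 4 (edgeR, adjusted p = 0.0359), lost without any library of day 4 but TAC replicate 2 (adjusted p up to 0.135), and at -0.08 at day 7.

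**Figure D3:**
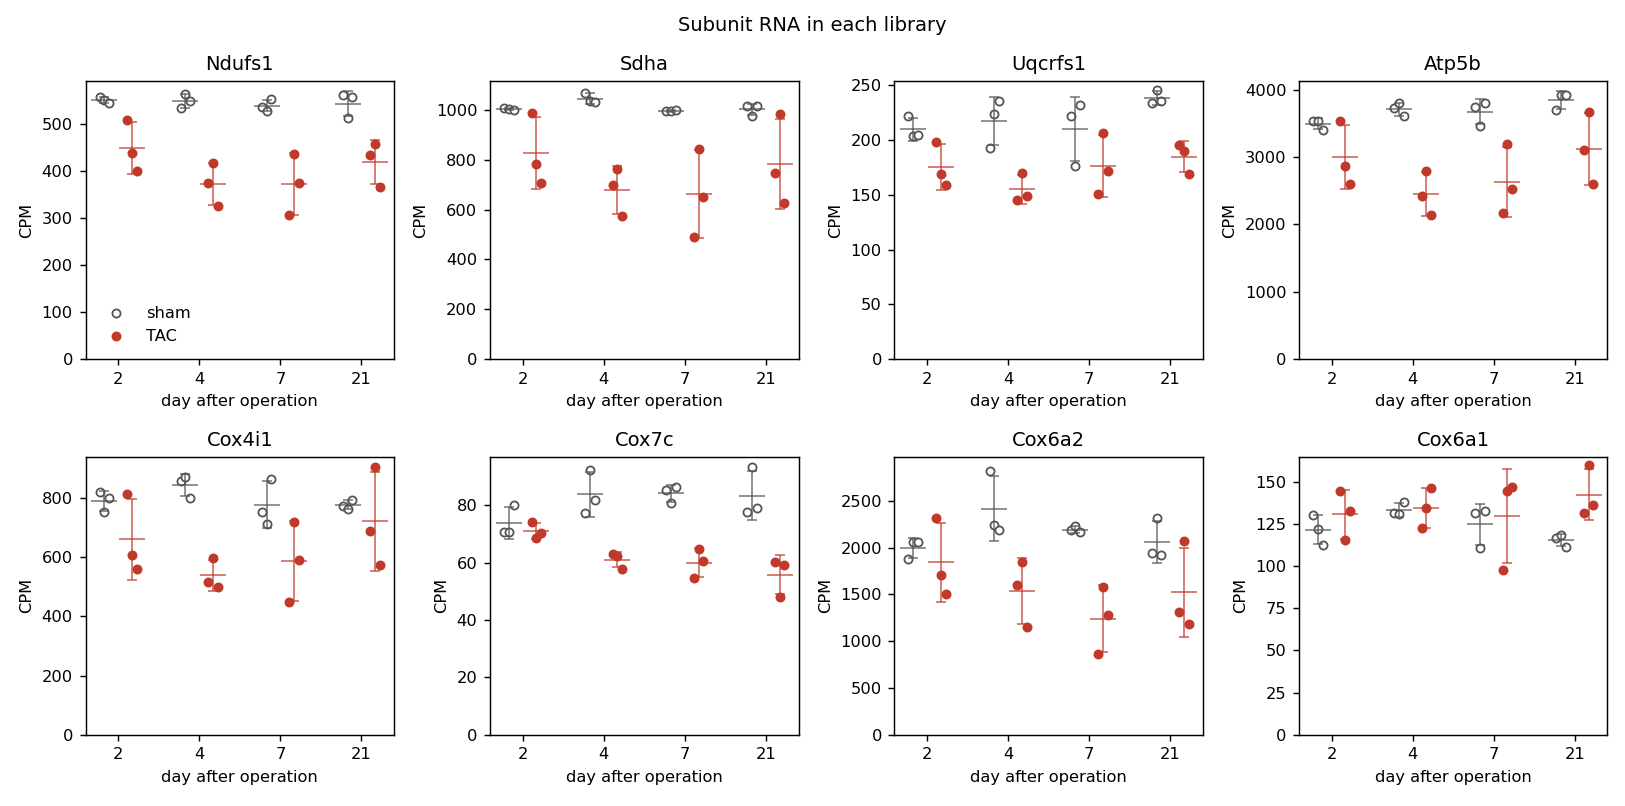
CPM of 8 subunit genes in each library (y axis, from 0) against the day after the operation (x axis); points are libraries, horizontal lines are group means and bars are 1 SD (n = 3). Ndufs1 is lower in every TAC library than in every sham library of its day, and Cox7c is lower from day 4 on. Cox6a1 overlaps between the groups except at day 21. Its muscle form Cox6a2 is lower in TAC at days 4 and 7 and overlaps at days 2 and 21.

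Complex IV, cytochrome c oxidase, is the complex whose nuclear subunits have tissue forms. Of its 16 tested genes 7 fell at day 4, 6 at day 7 and 1 at day 21. Cox4i1, the general form of the largest nuclear subunit, was at 856, 872 and 801 CPM in sham and at 518, 598 and 499 CPM in TAC at day 4, -0.65 ± 0.16 (edgeR, adjusted p = 0.00717). At day 7 it overlapped, with 752, 713 and 865 CPM in sham and 449, 719 and 592 CPM in TAC. Cox7c, a small membrane subunit, had the smallest p of the complex at days 4, 7 and 21. In sham it was at 77.2, 92.5 and 82.0 CPM at day 4, 85.5, 80.9 and 86.4 CPM at day 7, and 77.8, 93.4 and 79.2 CPM at day 21. In TAC it was at 62.9, 62.4 and 58.0 CPM, then 54.7, 64.7 and 60.6 CPM, then 60.3, 48.1 and 59.2 CPM. The groups were apart at all 3 days and the low level was seen also in TAC day 21 replicate 2, where the summed subunits were at 110% of sham. Its log2 fold changes were -0.06 at day 2, -0.46 ± 0.096 at day 4 (edgeR, adjusted p = 0.00244), -0.49 ± 0.097 at day 7 (edgeR, adjusted p = 0.0017) and -0.58 ± 0.097 at day 21 (edgeR, adjusted p = 0.0102). When libraries were scaled by the heart muscle markers, none of the 3 Cox7c calls was kept: the log2 fold changes were then -0.29 at day 4, -0.24 at day 7 and -0.51 at day 21 (edgeR, adjusted p = 0.0976, 0.146 and 0.0727). The call of day 21 was lost also without sham day 21 replicate 2 (adjusted p = 0.0505). The lowest called values of the complex were those of muscle forms, with Cox8b at -0.73 ± 0.24 at day 4 and Cox7a1 at -1.18 ± 0.33 at day 7. At day 4 Cox7a1 stood lower than Cox8b, at -0.88 ± 0.33, and was not called (edgeR, adjusted p = 0.0559).

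For 3 complex IV subunits the table holds both a muscle form and a general form. Cox6a2, Cox7a1 and Cox8b are the forms of heart and skeletal muscle, and Cox6a1, Cox7a2 and Cox8a are the general forms. Cox6a2 was at 2814, 2240 and 2187 CPM in sham and at 1605, 1849 and 1152 CPM in TAC at day 4, and at 2182, 2230 and 2164 CPM against 861, 1579 and 1280 CPM at day 7. Cox6a1 was at 131, 131 and 138 CPM in sham and at 122, 134 and 146 CPM in TAC at day 4, and at 131, 111 and 132 CPM against 97.8, 144 and 147 CPM at day 7. The muscle form was thus apart between the groups on both days while the general form overlapped. Cox6a2 fell by 0.65 ± 0.22 at day 4 (edgeR, adjusted p = 0.0328) and by 0.82 ± 0.22 at day 7 (edgeR, adjusted p = 0.0116) on the log2 scale, while Cox6a1 was at 0.01 ± 0.12 and 0.05 ± 0.13 (edgeR, adjusted p = 0.954 and 0.779). The Cox6a2 calls were lost without sham day 4 replicates 1 or 2 or TAC day 4 replicates 1 or 3 (adjusted p up to 0.185) and without TAC day 7 replicate 1 (adjusted p = 0.0813).

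Cox7a1 was at 1613, 1945 and 1673 CPM in sham and at 369, 1179 and 755 CPM in TAC at day 7, where its fall was called (edgeR, adjusted p = 0.0157). It lost the call without sham day 7 replicate 2 (adjusted p = 0.0501), TAC day 7 replicate 1 (0.091) or TAC day 7 replicate 3 (0.051). Its general form Cox7a2 was at -0.45 ± 0.18 at that day (edgeR, adjusted p = 0.0694). Cox8b was at 730, 721 and 666 CPM in sham and at 442, 508 and 324 CPM in TAC at day 4 (edgeR, adjusted p = 0.031), a call that was lost without any library of day 4 but TAC replicate 2 (adjusted p up to 0.169). Cox8a was at 145, 146 and 144 CPM in sham and at 145, 140 and 133 CPM in TAC at day 4, -0.06 ± 0.085 (edgeR, adjusted p = 0.66). At day 21 all TAC libraries of Cox6a1 and Cox8a were above all sham libraries, with 131, 160 and 136 CPM against 117, 118 and 111 CPM for Cox6a1 and 146, 147 and 147 CPM against 135, 142 and 133 CPM for Cox8a, a pattern that 11.9% of all genes tested showed, and neither passed the test.

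Ratios of paired genes within a library do not depend on how libraries are scaled. For 6 pairs the log2 ratio of counts was set side by side in TAC and sham over the 4 days. Some of the genes had been seen to differ in these data before the pairs were chosen, so the ratios are given as a description, with no test. Per 100 counts of Cox6a2, the counts of Cox6a1 were 4.67 to 6.94 in the 12 sham libraries. In TAC they were 6.23, 6.76 and 8.81 at day 2, 7.63, 7.27 and 12.7 at day 4, 11.4, 9.15 and 11.5 at day 7, and 10.0, 7.73 and 11.5 at day 21. From day 4 on every TAC library was above every sham library of the series, including TAC day 21 replicate 2. The log2 ratio was higher in TAC by 0.65 on average over the days.

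Cox7a2 per 100 Cox7a1 was 26.4 to 38.7 in sham, and it was 37.5, 51.6 and 47.5 at day 2, 38.8, 37.5 and 56.9 at day 4, 70.1, 42.5 and 54.2 at day 7, and 38.8, 31.3 and 47.7 at day 21 in TAC. Its mean log2 difference was 0.45, with overlap between the groups at day 21. Cox8a per 100 Cox8b was 19.9 to 24.2 in sham and 21.8, 32.7 and 38.8 at day 2, 32.8, 27.6 and 41.1 at day 4, 39.9, 28.6 and 33.5 at day 7, and 28.6, 18.3 and 36.8 at day 21 in TAC. Its mean log2 difference was 0.49, with overlap at days 2 and 21. In TAC day 21 replicate 2 the Cox7a and Cox8 ratios were within or below the sham range, unlike the Cox6a ratio.

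The Cox4i and Ndufa4 pairs set a gene known as induced by low oxygen against its general partner. Cox4i2 per 100 Cox4i1 was 0.555 to 1.02 in sham, and in TAC it was 0.652, 0.716 and 0.672 at day 2, 0.825, 0.966 and 1.18 at day 4, 1.62, 1.06 and 1.11 at day 7, and 1.11, 1.03 and 1.08 at day 21. The groups overlapped at days 2 and 4 and were apart at days 7 and 21, and the mean log2 difference over the days was 0.35. Ndufa4l2 per 100 Ndufa4 was 3.70 to 5.34 in sham, and in TAC it was 3.55, 5.24 and 5.73 at day 2, 5.81, 5.89 and 6.92 at day 4, 9.34, 5.01 and 6.79 at day 7, and 5.97, 6.59 and 6.06 at day 21. The groups were apart from day 4 on within each day, and the mean log2 difference was 0.44. Ndufa4l2 itself was at 10.7, 10.2 and 9.58 CPM in sham and at 13.5, 11.8 and 13.6 CPM in TAC at day 7, 0.35 ± 0.13 (edgeR, adjusted p = 0.0555). It passed on the RPKM scale and, with Cox4i2, when libraries were scaled by the heart muscle markers. The sixth pair, Atp5g2 over Atp5g3, sets 2 genes for the same mature protein against each other and had a mean log2 difference of 0.07, with overlap between the groups from day 4 on. Fibroblasts, macrophages and vessel cells use the general forms of the Cox6a, Cox7a and Cox8 pairs. For no pair was the ratio in heart muscle cells alone measured. Which cells gave the reads of Cox4i2 and Ndufa4l2 was not measured either. In TAC day 7 replicate 2 and TAC day 21 replicate 2 the Cox6a ratio (9.15 and 7.73) was above the sham range. The fibroblast sum (1999 and 1444 CPM) and the macrophage sum (349 and 262 CPM) were not above the range over all sham libraries. Both macrophage sums were above the sham libraries of their own day (279 to 290 and 232 to 242 CPM). The endothelium marker sums, 1534 and 1589 CPM, were above all sham libraries (1265 to 1479 CPM). The smooth muscle and pericyte marker sums, 1460 and 1669 CPM, were below and within the sham range (1600 to 1946 CPM). The part of these cells in the ratio was not tested.

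**Figure D4:**
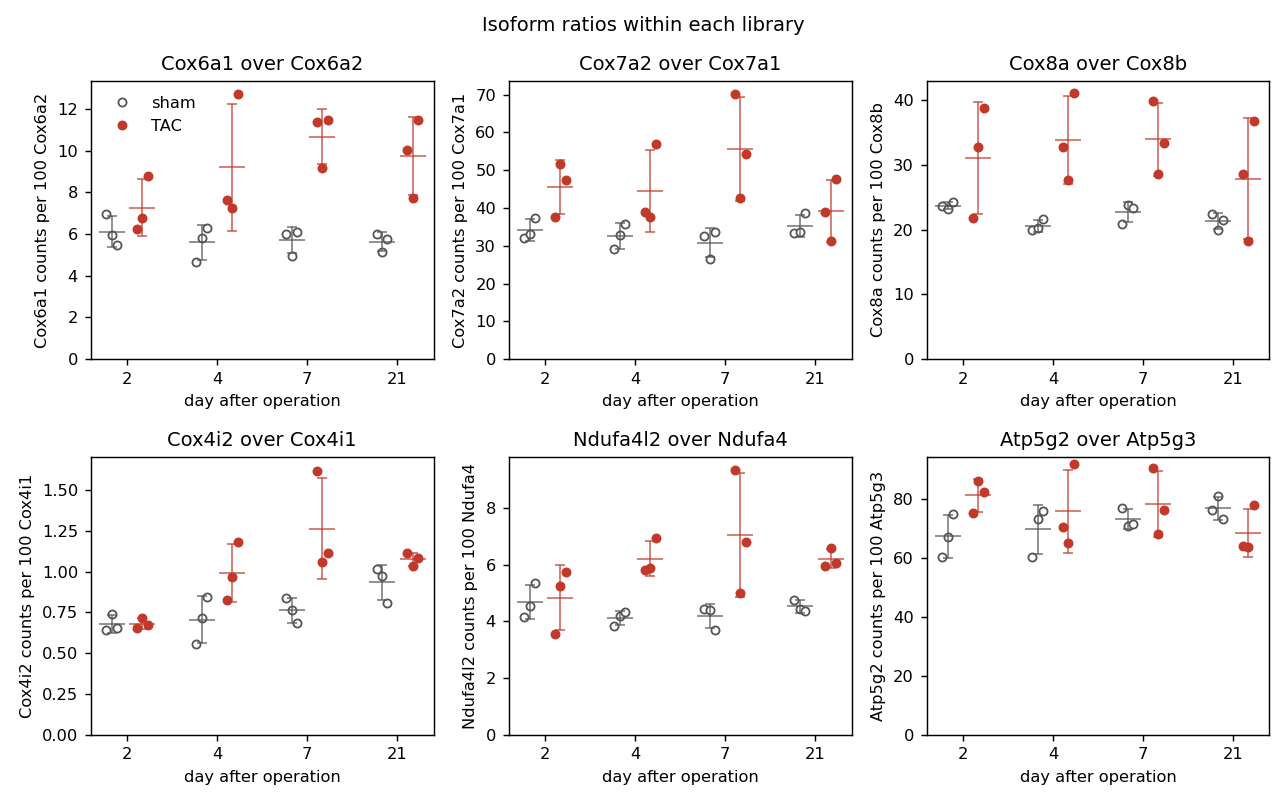
Counts of the first gene of a pair per 100 counts of the second in each library (y axis, from 0) against the day after the operation (x axis); points are libraries, horizontal lines are group means and bars are 1 SD (n = 3). The TAC points of Cox6a1 over Cox6a2 lie above all sham points from day 4 on (7.27 to 12.7 against 4.67 to 6.94), and those of Atp5g2 over Atp5g3 overlap with sham from day 4 on.

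The promoters of the Cox7a and Cox8 pairs are shown because the muscle form and the general form differ there in CG dinucleotides, which are dense in promoters of genes that most cells use. They are the 250 bases before the transcript start in RefSeq (GRCm38.p6, given 5′ to 3′ on the strand of the gene), with each CG dinucleotide in capitals. Cox7a1 lies at chr7:30183921-30184170 on the plus strand, Cox7a2 at chr9:79759854-79760103, Cox8b at chr7:140900447-140900696 and Cox8a at chr19:7217617-7217866, these 3 on the minus strand.
Cox7a1: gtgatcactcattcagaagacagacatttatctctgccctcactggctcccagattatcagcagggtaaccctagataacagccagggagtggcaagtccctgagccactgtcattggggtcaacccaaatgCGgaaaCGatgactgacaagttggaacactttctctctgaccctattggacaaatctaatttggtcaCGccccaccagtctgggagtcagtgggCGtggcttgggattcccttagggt
Cox7a2: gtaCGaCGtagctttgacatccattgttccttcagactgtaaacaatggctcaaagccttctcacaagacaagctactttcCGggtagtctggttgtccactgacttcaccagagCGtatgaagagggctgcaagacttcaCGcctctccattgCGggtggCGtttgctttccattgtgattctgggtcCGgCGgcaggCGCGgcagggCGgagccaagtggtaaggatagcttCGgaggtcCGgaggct
Cox8b: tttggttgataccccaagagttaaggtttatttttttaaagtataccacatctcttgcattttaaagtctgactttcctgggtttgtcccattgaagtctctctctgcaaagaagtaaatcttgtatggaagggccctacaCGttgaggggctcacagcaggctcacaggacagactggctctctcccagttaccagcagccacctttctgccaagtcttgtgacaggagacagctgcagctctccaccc
Cox8a: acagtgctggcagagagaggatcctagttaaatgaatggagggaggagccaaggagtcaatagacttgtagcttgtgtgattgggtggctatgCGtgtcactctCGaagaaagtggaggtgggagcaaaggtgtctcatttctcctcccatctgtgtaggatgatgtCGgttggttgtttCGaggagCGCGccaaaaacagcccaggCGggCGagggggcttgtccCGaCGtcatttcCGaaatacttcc
The windows hold 4 CG dinucleotides for Cox7a1, 14 for Cox7a2, 1 for Cox8b and 11 for Cox8a. The median was 14 over the subunit promoters and 6 over all 27025 promoters of the table, and the subunits ran from 1, in Cox8b, to 35. Low counts were not limited to the muscle forms named here: Ndufc2 held 4, and Cox7b and Uqcr10 held 5 each.

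Promoters matched 69 of the 84 subunits by symbol, 67 of them tested. Motifs were searched on both strands from 250 bases before to 50 after the start. The core recognised by NRF1, which is known to act on respiratory genes (GCGCA, any base, then GCGC), was found in 15 of 67 (22.4%) against 4.78% of all promoters. CCGGAAG, an ETS family core such as that of GABP, was found in 22.4% against 9.12%, AANATGGCG, the YY1 core, in 13.4% against 2.51%, and AAGGTCA, the estrogen-related receptor core, in 10.4% against 4.66%. GGGCGG, the SP1 core, was at 40.3% against 35.9%. A pattern looser than the MEF2 core (CTA, any 4 bases, then TAG) was at 1.49% against 3.70%. Among subunits called lower, Sdha and Uqcrc1 hold the NRF1 core, Atp5b holds the YY1 core, and Sdhb and Ndufs8 hold the ETS core. Subunits not called at any day hold such cores too. Among them are Cox6a1, Ndufa8, Ndufa11 and Sdhd with the NRF1 core and Cox8a with the ETS core. A relation between a core and the fall was not tested. The NRF1, ETS, YY1 and SP1 cores contain CG, and subunit promoters held more CG dinucleotides (median 14) than all promoters (median 6). The shares were not adjusted for this difference. A match describes the letters of the window only.

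Genes around the complexes were read from lists chosen with earlier results of these data known. Whether calls in these lists, here and for the regulators below, hold without single libraries was not examined. Of 7 tested subunits and carriers that the name patterns miss, 3 fell at day 4 (10.1% of all genes) and 0 at days 2, 7 and 21, with medians of -0.12, -0.47, -0.36 and -0.08. The 3 were Ndufab1, the acyl carrier protein of complex I, at -0.54 ± 0.16 (edgeR, adjusted p = 0.0211), Cyc1, the cytochrome c1 of complex III, at -0.47 ± 0.15 (edgeR, adjusted p = 0.0256), and Usmg5, a small subunit of complex V, at -0.58 ± 0.21 (edgeR, adjusted p = 0.0473). Atpif1, the inhibitor of the ATP synthase, was at 0.08 at day 4 and -0.10 at day 7 and did not pass. Of 48 tested assembly factors of the 5 complexes, 0, 5, 10 and 0 fell and 0, 1, 0 and 1 rose at days 2, 4, 7 and 21, with medians of -0.10, -0.22, -0.26 and -0.06. At day 4 the share that fell was near the 10.1% of all genes tested, and at day 7 it was above the 10.0% of all genes. Surf1, an assembly factor of complex IV, fell at days 4 and 7, by 0.37 and 0.33 on the log2 scale (edgeR, adjusted p = 0.0061 and 0.0125). Cox19, which acts in copper delivery to complex IV, was the gene that rose, at 0.44 ± 0.14 at day 4 (edgeR, adjusted p = 0.0322) and 0.78 ± 0.14 at day 21 (edgeR, adjusted p = 0.0137), with 14.5 against 24.8 CPM at day 21.

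Of 17 tested regulators of mitochondrial genes 7 fell at day 4, and 6 fell and 1 rose at day 7, with 0 called at days 2 and 21. Of all genes tested, 10.1% fell at day 4, and 10.0% fell and 13.1% rose at day 7. Ppargc1a, the coactivator PGC-1 alpha, fell from 367 to 241 CPM at day 4 (-0.61 ± 0.16, edgeR, adjusted p = 0.0107) and from 324 to 208 CPM at day 7 (-0.64 ± 0.16, edgeR, adjusted p = 0.00925). Perm1, a muscle regulator of the same programme, fell from 294 to 173 CPM at day 4 (-0.77 ± 0.15, edgeR, adjusted p = 0.00154). Esrrg, Gabpa and Polrmt, which encode an estrogen-related receptor, the DNA-binding subunit of GABP and the mitochondrial RNA polymerase, fell at both days. The gene that rose was Hif1a, the oxygen-regulated transcription factor, at day 7 (0.41 ± 0.14, edgeR, adjusted p = 0.0395).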

How the data were processed

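RNA of 24 mouse left ventricle libraries (sham or TAC, 4 days, 3 libraries each) was sequenced from total RNA. The authors deposited raw read counts per gene and RPKM. The submitters' processing notes name TopHat, DESeq and the human build hg19; mouse build, annotation and counter were not given in the sources used here. Counts were tested with edgeR 4.0.16 in R 4.3.3 (filterByExpr, TMM, glmQLFit and glmQLFTest on 8 group means, two-sided, Benjamini-Hochberg over 13816 genes); the SE is the size of the log2 fold change divided by the square root of F. The biological coefficient of variation was 0.146. Log2 ratios of counts used a prior count of 0.5. A permutation test of them was run (NumPy 2.4.6). Its p-values are not given, since some pairs were chosen with these data known. RPKM deposited by the authors were tested with limma 3.58.1 after a filter of 0.5 RPKM in at least 3 libraries, which left 14307 genes. Other alternatives were RLE and heart muscle marker scaling, no filter or 1 CPM in 3 libraries, DESeq2 1.42.0, limma voom, a replicate block, Myl7 as covariate, only the 2 groups of a day, and each library left out. Replicate numbers did not pair libraries (correlation of deviations -0.151 to 0.141). No 2 libraries of a group agreed within sampling noise (chi-square per degree of freedom 3.56 to 60.6). Scripts were checked on simulated counts. Copies were found with blastn 2.17.0+ among GENCODE transcripts. The members, lists and tests were chosen with earlier results of these data known. Genes named are a fixed set of core and isoform genes, and per complex and day the smallest p and the largest called change; those that held without any library were named after their values were seen. The values of 1 gene that this rule names are not reported here.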

Additional observations from a re-analysis of the deposited data

How the results depend on the processing

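RLE scaling, the absence of a filter, the CPM filter and the replicate block kept every count of subunits within 1.5 times its main value; with the block, which rests on numbers that do not pair the libraries, 0, 47, 29 and 1 subunits were lower at days 2, 4, 7 and 21. Scaled by the heart muscle markers, 1 (Ndufs8), 35, 16 and 0 were lower and 0, 0, 2 and 0 higher; this scaling moved the median of all genes to 0.07, 0.17, 0.27 and 0.08, and that of the subunits to -0.15, -0.32, -0.19 and -0.04. With Myl7 as covariate 6, 32, 48 and 11 were lower. With only the 2 groups of the day 13 were lower at day 7 and 0 at day 21. DESeq2 called 54, 35 and 2 lower at days 4, 7 and 21, and both RPKM pseudocounts (1 and 0.1) called 36, 30 and 1 lower and 1 higher at day 7 (Ndufa4l2). Without the 4 libraries over 30 CPM of Myl7, chosen after seeing the data, 1 was lower at day 7 and 0 at day 21. With each library left out in turn, 0 to 6, 9 to 58, 2 to 59 and 0 to 1 were lower at the 4 days, 0 to 1 higher at day 7, and 0 higher at the other days or different between days. The log2 ratios ranged from 0.58 to 0.69 for Cox6a1 over Cox6a2, 0.40 to 0.49 for Cox7a2 over Cox7a1, 0.43 to 0.56 for Cox8a over Cox8b, 0.30 to 0.39 for Cox4i2 over Cox4i1, 0.39 to 0.50 for Ndufa4l2 over Ndufa4 and 0.04 to 0.10 for Atp5g2 over Atp5g3. The 72 calls of single subunits gave 2592 values over 36 settings, of which 470 did not pass and 0 reversed. The causes were not tested.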
